A study of Sus scrofa with 24 samples.

Results

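From the 3000 circular RNAs (circRNAs) in the deposited count table, 139 form the set described here. Most of their counts in the spleens of newborn Meishan pigs were listed at 0, and all had reads in every pig of 120d and 180d. They were chosen from the raw counts: at least 5 reads in each of the 3 libraries of 120d and the 3 libraries of 180d, and a listed 0 in at least 2 of the 3 libraries of 1d. These conditions hold for 141 circRNAs, and circRNA_37493 and circRNA_36034 were left out by the rule that defined the set. Because the choice used 1d, 120d and 180d, the values at these ages are given as a description. Tests were made in the 15 libraries of 7d, 14d, 21d, 28d and 35d, which the choice did not use.

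The series holds ribosomal RNA-depleted total RNA libraries of whole spleen from Meishan pigs, a Chinese indigenous breed, at 8 ages after birth with 3 pigs at each age and no treatment. The back-splice reads of the 3000 circRNAs summed to 16273 to 87867 per library, with a median of 37510. Table totals were lowest at 1d and 7d, at 16273 to 25283 reads. Spleen is a mixture of cells, and in such bulk tissue fewer cells of a type and less of an RNA per cell cannot be told apart.

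A circRNA forms when the spliceosome splices the end of an exon backwards onto the start of an earlier one, which closes the RNA into a ring. It has neither cap nor tail, resists exonucleases and can outlast the messenger RNA of its host gene. The spleen filters blood and hosts immune responses, and in young mammals its lymphoid compartments fill with B and T cells after birth. Only the circles were counted here, and the linear RNA of the host genes was not analysed.

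The junction is the one stretch that separates a circRNA from its host messenger RNA, so it is shown for the circRNAs on which the results turn. In each line the 15 lower case bases end the last exon of the circle, and the 15 capitals begin its first exon. The exception is circRNA_19735, whose lower case bases end the circle at no annotated exon end. The sequences were read 5′ to 3′ from the RefSeq genome of Sscrofa11.1, on the strand of the host gene. The first 5 are the circRNAs that passed a test and the circRNA of PARP14, and the last 4 are pairs from PTPN4 and B4GALT6.
EIF2AK2 circRNA_24923: gtcctatctccagtgGCAAATAGTTCTTCA
PRKD2 circRNA_30285: aggcaaggcccagagATTGCAAGTTCAACT
LOC106506781 circRNA_19735: taaaccactgaacagCACCACCAAGCTGCC
OSBPL9 circRNA_32164: caccaaatagtacagAAAATTGAAACTCTC
PARP14 circRNA_11507: ttcaaaaacatatcgTTCGGAAGCAAGTTC
PTPN4 circRNA_15391: gcaccaggaacacctGTTGAAGATTGTAAA
PTPN4 circRNA_15395: tttggaatcatcaccGTTGAAGATTGTAAA
B4GALT6 circRNA_31644: aaacccagatggaagCCAACACATATCTCT
B4GALT6 circRNA_31645: aactgccttacatgcCCAACACATATCTCT
Within each pair the capitals are identical, since both circles begin at the same exon and close from different ones. In the genome all 139 circles were flanked by AG before the first base and GT after the last. The same held for all 3000 of the table, since the study's methods used the GT-AG signal to find circRNAs.

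The circles came from many genes. Both ends matched exon ends of a RefSeq gene for 133 of the 139, from 127 host genes, and 6 hosts gave 2 each: FRMD4B, PTPN4, EIF2AK2, OSBPL9, B4GALT6 and RFWD2. For 132 the exons between the ends formed a chain in 1 transcript, with a median spliced length of 331.5 nt and quartiles of 278.5 and 425.75 nt. The 1389 other circRNAs with at least 5 reads in every late library had a median of 412 nt, and the whole table had 432 nt. Both groups held a median of 3 exons. The start codon of the host lay inside 9 of the 132 circles (6.82%), compared with 17.7% of those others and 16.4% of the table. The median GC content of 43.9% lay close to the 43.3% of the table. The introns before and after the circles had medians of 8337 and 7284 nt, beside 8372 and 7317 nt for the others. These features are given as counts and medians without a test, and the others were also more abundant, with a median scaled count of 12.2 over 7d to 35d beside 5.26 for the 139.

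At 1d, 24 of the 139 were listed at 0 in all 3 libraries and 115 in exactly 2. Of the 139, 124 were at 0 in pig 1, 103 in pig 2 and 75 in pig 3, in the order of the pigs' table totals of 16273, 20930 and 23752 reads. The highest count at 1d was 15, in the circRNA of FNBP1, and the median count above 0 was 3. A circRNA with reads in a 1d library cannot be called absent at birth, so "appearing after birth" describes the count rule and holds as absence from the listed counts for the 24. Even there it is limited by how the table was made. The table has no count of 1 and a smallest count above 0 of 2, so a listed 0 stands for 0 or 1 read, and 3 listed zeros allow up to 6.43 reads over the 3 libraries with a chance of 0.05.

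Low table totals at 1d could give listed zeros without a change in share, and their number was estimated. For each of the 1530 circRNAs past the late minimum, the share of the reads at 120d and 180d was multiplied by the table totals of the 1d libraries. Sampling at these depths (Poisson) gave 35.9 circRNAs with a listed 0 in at least 2 of the 3 libraries, 2.35% of the 1530, whereas 141 were observed (9.22%). A negative binomial model with the spread between pigs (a biological coefficient of variation of 0.300) gave 52.5. When the shares came from 14d to 35d instead, the numbers were 59.4 and 77.5. With TMM-scaled totals the number from the late shares was 15.3, and with the study's clean reads as the depth it was 0.00404. The number expected from depth alone thus depends on which total is taken as the depth, and which circRNAs it would include cannot be told.

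The circRNAs closest to the limits show how narrow they are. FIG4 circRNA_01010, from a phosphoinositide phosphatase gene, was just inside with 8 reads in 1 library of 1d and a lowest late count of 5. SMARCC1 circRNA_09524 and MOB1A circRNA_24144 were just inside with 6 reads in 1 library of 1d. POLB circRNA_18345 was just outside, with 0, 2 and 14 reads at 1d and 15 to 41 in the late libraries, and SEC24A circRNA_22453 had 0, 2 and 13 reads at 1d. In all, 108 circRNAs missed the set through 1 library of 1d with 2 reads, and 54 through 1 late library that was 1 read short.

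The libraries of 7d had table totals about as low as those of 1d and took no part in the choice. Of the 139, 41 (29.5%) were at 0 in at least 2 of the 3 libraries, compared with 82 of the 1389 others (5.90%). From their shares at 14d to 35d and the totals of the 7d libraries, 14.6 of the 139 and 30.6 of the others were expected, or 18.7 and 43.4 with the spread between pigs. The observed number exceeded the Poisson number 2.81 times for the 139 and 2.68 times for the others, so an excess of listed zeros at 7d was found in both. The 2 groups lay further apart in their reads. The 139 together had 997 reads at 7d against 1449 expected after single reads are listed at 0, a ratio of 0.688, while the ratio of the others was 0.947. The ratios depend on the depth taken. With TMM-scaled totals they were 0.616 and 0.855, and with clean reads 0.352 and 0.499. These are expected numbers and not tests.

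**Figure D1:**
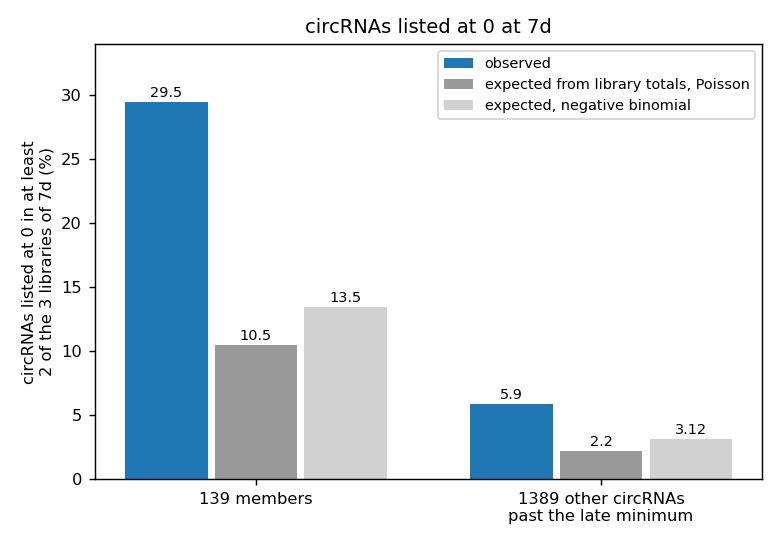
Percent of circRNAs (y axis) listed at 0 in at least 2 of the 3 libraries of 7d, for the 139 circRNAs and the 1389 others past the late minimum; blue bars are observed, grey bars are expected from the shares at 14d to 35d and the 7d totals. The observed 29.5% and 5.90% both stand above the expected 10.5% and 2.20% (Poisson) and 13.5% and 3.12% (negative binomial).

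The listed zeros of the 139 fell from 150 of 417 counts at 7d to 7 at 35d, though not at every stage, with 21 at 21d and 23 at 28d. Listed zeros in at least 2 libraries were found for 12 of the 139 at 14d and 2 at 21d, and for 0 at 28d and 35d. Reads in all 3 libraries were listed for 37, 89, 120, 116 and 132 circRNAs over the 5 ages from 7d to 35d. The table totals grew over the same stages, so the reads are also given as a share of the table total. Summed over the 139, this share was 1.69%, 1.43% and 1.38% in the 3 pigs of 7d, with a mean of 1.5% ± 0.168 (SD, n = 3). The pigs of 14d averaged 2.03% ± 0.0566, those of 21d 2.19% ± 0.293, those of 28d 2.45% ± 0.156 and those of 35d 2.38% ± 0.133 (SD, n = 3 each). The single libraries of 35d had 2.36%, 2.53% and 2.27%. No library of 14d to 35d was as low as any of 7d, and the stages from 21d to 35d overlapped. The share at 35d was 1.59 times that at 7d, while the share of the 1389 others went from 71.7% to 76.8%. Per clean read of the study the ratio of the 139 was 3.61, but on that scale most circRNAs rose. With clean reads as the depth, the median log2 fold change at 35d against 7d was 1.87 for the 139. It was 1.33 for the others and 1.23 for the table, of which 90.2% was above 0. In the libraries the choice used, the share was 0.634% ± 0.354 at 1d, 2.71% ± 0.0277 at 120d and 3.11% ± 0.0734 at 180d.

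**Figure D2:**
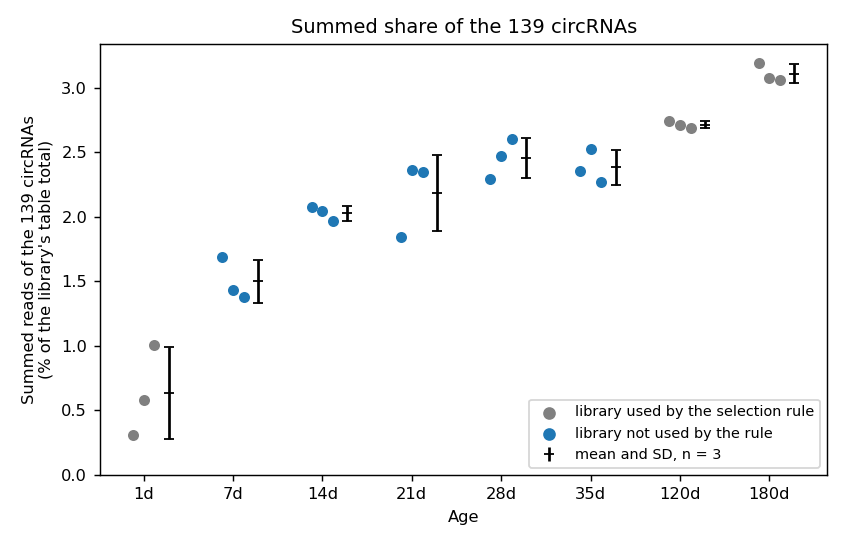
Summed reads of the 139 circRNAs as percent of each library's table total (y axis) by age (x axis), with points for single libraries and bars for the mean and SD of 3 pigs; grey points are libraries used by the choice. The 7d libraries lie between 1.38% and 1.69%, and those of 14d to 35d between 1.85% and 2.60%.

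For single circRNAs the counts were scaled by TMM, which corrects each library's total for its composition. The median over the 139 of the mean at each age rose from 3.59 scaled counts in the 7d pigs to 4.63, 6.13, 6.28 and 6.48 through the 4 ages up to 35d, and stood at 7.36 and 8.97 in the 2 late ages. At 7d 52 of the 139 were at 50% or more of their own late level, the mean over 120d and 180d, and at 21d 116 were. At 1d 3 already were. In pig 3 of 1d the circRNA of FNBP1 had 22.6 scaled counts, above its late mean of 18.9. At 35d 27 circRNAs were at or above their late mean, a value the choice used. All were low, with late means between 4.0 and 18.9 scaled counts.

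**Figure D3:**
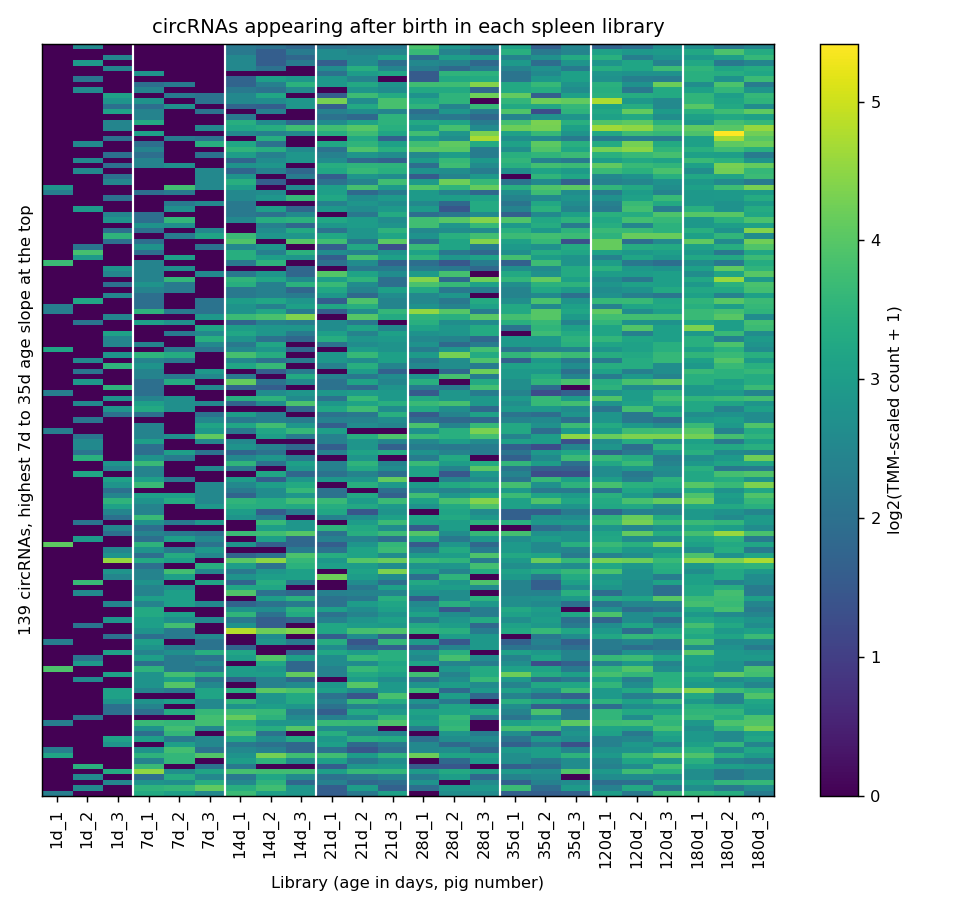
Scaled counts of the 139 circRNAs (rows, ordered by their age slope over 7d to 35d) in the 24 libraries (columns, by age and pig), as log2 of the TMM-scaled count plus 1. Dark cells are listed zeros, which fill most of the 1d columns and thin out from 7d to 35d, where 7 cells of 417 remain at 0.

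Against 7d, edgeR's quasi-likelihood test with Benjamini-Hochberg adjustment over all 3000 circRNAs called few of the 139 (adjusted p under 0.05 and a fold of at least 2). None was called at 14d (0.0% of the table was called higher) or 21d (0.3%), 1 was higher at 28d (0.8%) and 3 were higher at 35d (2.0%). The slope on log2 of age over the 15 libraries called 1 of the 139 higher, with 2.37% of the table. None was called lower in any of these, where 0.0%, 0.0667%, 0.4%, 1.53% and 1.93% of the table were. At an unadjusted p under 0.05 the 5 comparisons held 17, 21, 22, 23 and 30 of the 139, beside 306, 362, 452, 535 and 522 of the table. With DESeq2 the numbers called higher were 0, 0, 0, 2 and 2, beside 0.0%, 0.133%, 0.7%, 1.2% and 2.93% of the table. The counts called of the 139 were of the size that these shares of the table would give. With the study's clean reads as the depth the counts called higher were 2, 26, 20, 50 and 55 of the 139, beside 0.633%, 17.2%, 11.7%, 27.5% and 29.3% of the table.

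The direction of the fold changes leaned upward. The fold change was above 0 for 99, 114, 115 and 110 of the 139 in the 4 successive ages (79.1% in the last), whereas 59.2% of the table and 66.2% of the 1389 others were above 0 at 35d. The median log2 fold change of the 139 was 0.60, 0.74, 0.94 and 0.89 at the 4 stages, beside 0.16, 0.20, 0.17 and 0.22 for the table and 0.23, 0.28, 0.29 and 0.32 for the 1389 others. A fitted change from 3 listed zeros is no measure of size. With the 7 circRNAs at 0 throughout 7d set at the ratio to the most those zeros allow, the median at 35d was 0.75. Each such ratio takes the reads of the later age as exact, without their sampling error or the spread between pigs. Setting every listed 0 to 1, the most it can hold, lowered the medians at 28d and 35d to 0.59 and 0.45, with those of the table at −0.03 and −0.01. All 3 libraries lay above all 3 of 7d in 22, 23, 27 and 33 of the 139 at the 4 stages (15.8%, 16.5%, 19.4% and 23.7%). In the table the same was true of 9.77%, 12.3%, 12.6% and 15.2%, and among the 1389 others of 12.2%, 15.8%, 16.9% and 20.9%. The reverse held for 4, 3, 2 and 2 of the 139, beside 5.87%, 5.23%, 7.77% and 8.87% of the table. The 4 comparisons share the 7d libraries.

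**Figure D4:**
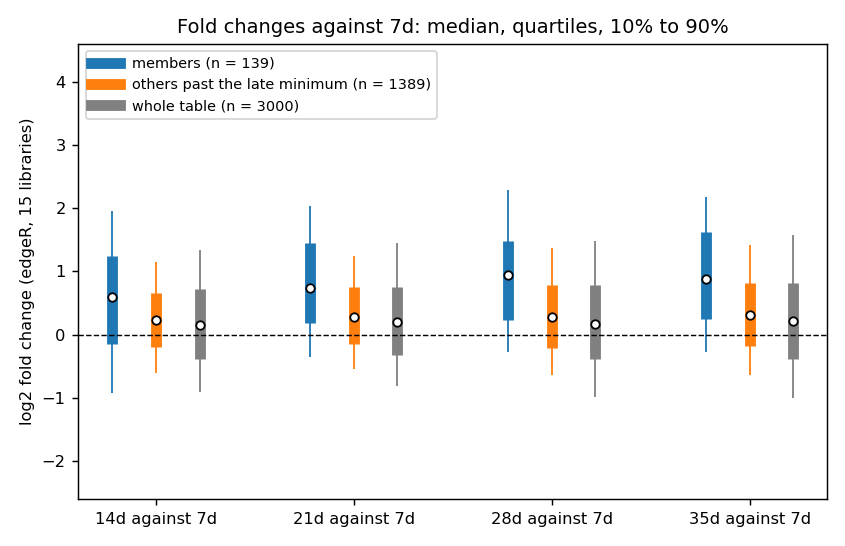
Log2 fold changes against 7d (y axis) at 4 ages (x axis) for the 139 circRNAs, the 1389 others past the late minimum and the whole table, with circles for the median, thick bars for the quartiles and thin lines from the 10th to the 90th percentile. The median of the 139 lies between 0.60 and 0.94 and that of the table between 0.16 and 0.22.

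The 4 circRNAs that passed a test came from unrelated genes. PRKD2 encodes protein kinase D2, which acts in antigen receptor signalling of lymphocytes, and circRNA_30285 joins exons 6 to 7 (chr6:52584896-52585202, minus strand, 232 nt). The 3 pigs of 7d had 0, 0 and 0 reads, those of 14d had 4, 2 and 2, those of 21d had 5, 6 and 10, those of 28d had 3, 8 and 5 and those of 35d had 4, 8 and 12. Every later library held reads and the 7d libraries held none. Its 24 reads at 35d were 1.88 times the most that the 7d zeros allow, a ratio without an error (edgeR adjusted p = 0.0413 for the fitted change). In the libraries of the choice it had 0, 0 and 3 reads at 1d and 6 to 21 late.

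OSBPL9 encodes an oxysterol-binding protein of lipid transport, and circRNA_32164 spans exons 8 to 12 (chr6:160415615-160433902, minus strand, 316 nt). It was also at 0 in all 7d libraries, and the later pigs had 4, 6 and 9 reads (14d), then 8, 6 and 9 (21d), then 7, 8 and 6 (28d) and 4, 7 and 8 (35d). Levels at 14d to 35d overlapped, with the step between 7d and 14d. Its reads were 2.04 times the limit of the 7d zeros at 28d (edgeR adjusted p = 0.0407) and 1.49 times at 35d (edgeR adjusted p = 0.0444). The other OSBPL9 circle, circRNA_32158 over exons 11 to 13, had 3, 2 and 5 reads at 7d and 7, 8 and 16 at 35d, a log2 fold change of 0.63 ± 0.64 (SE, edgeR adjusted p = 0.705).

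circRNA_19735 lies within LOC106506781, a long non-coding RNA gene (chr18:17859078-17947161, plus strand), and only its first base matches an exon end. It was among the most abundant of the 139 late, with a mean of 18.9 scaled counts beside 18.9 for the circRNA of FNBP1, and had 29 to 51 reads at 120d and 15 to 30 at 180d. The reads were 0, 0 and 3 in the pigs of 7d, 7, 9 and 10 in those of 14d and 12, 17 and 13 in those of 21d. They were 7, 15 and 4 in the pigs of 28d and 16, 26 and 10 in those of 35d. All libraries from 14d on exceeded those of 7d in raw reads. The log2 fold change at 35d was 3.05 ± 0.77 (SE, edgeR adjusted p = 0.0172).

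EIF2AK2 encodes PKR, the kinase that binds double-stranded RNA and halts translation during viral infection. Its circRNA_24923 spans exons 5 to 8 (chr3:103051982-103055415, plus strand, 450 nt). After 0 reads in all 3 libraries of 1d, it had 2, 2 and 0 reads in the pigs of 7d, 2, 4 and 8 in those of 14d and 6, 10 and 8 in those of 21d. The pigs of 28d had 13, 14 and 16 reads and those of 35d had 8, 16 and 8. It was highest at 28d, above every library of 7d to 21d, and at 35d it overlapped 14d and 21d. The slope was 0.94 ± 0.29 log2 units for each doubling of age (SE, edgeR adjusted p = 0.0497). A second circle from exons 13 to 14, circRNA_24935, had a slope of 0.76 ± 0.27 (SE, edgeR adjusted p = 0.107), with 0, 7 and 3 reads at 7d and 15, 12 and 13 at 28d.

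None of these calls held in every setting. Of the 15 fits that left out 1 library, circRNA_19735 lost its call in 3, PRKD2 in 5, OSBPL9 in 8 at 28d and 10 at 35d, and EIF2AK2 in 11, holding without 14d pig 3, 21d pig 1, 35d pig 1 or 35d pig 3. The calls of PRKD2, circRNA_19735 and OSBPL9 at 35d were each lost without 7d pig 1, 7d pig 2 or 35d pig 2, and those of PRKD2, OSBPL9 and EIF2AK2 were lost when listed zeros were set to 1. The 35d libraries of pigs 2 and 3 fell below 0.96 in the study's share of valid bases, and without the libraries below that share no call remained.

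**Figure D5:**
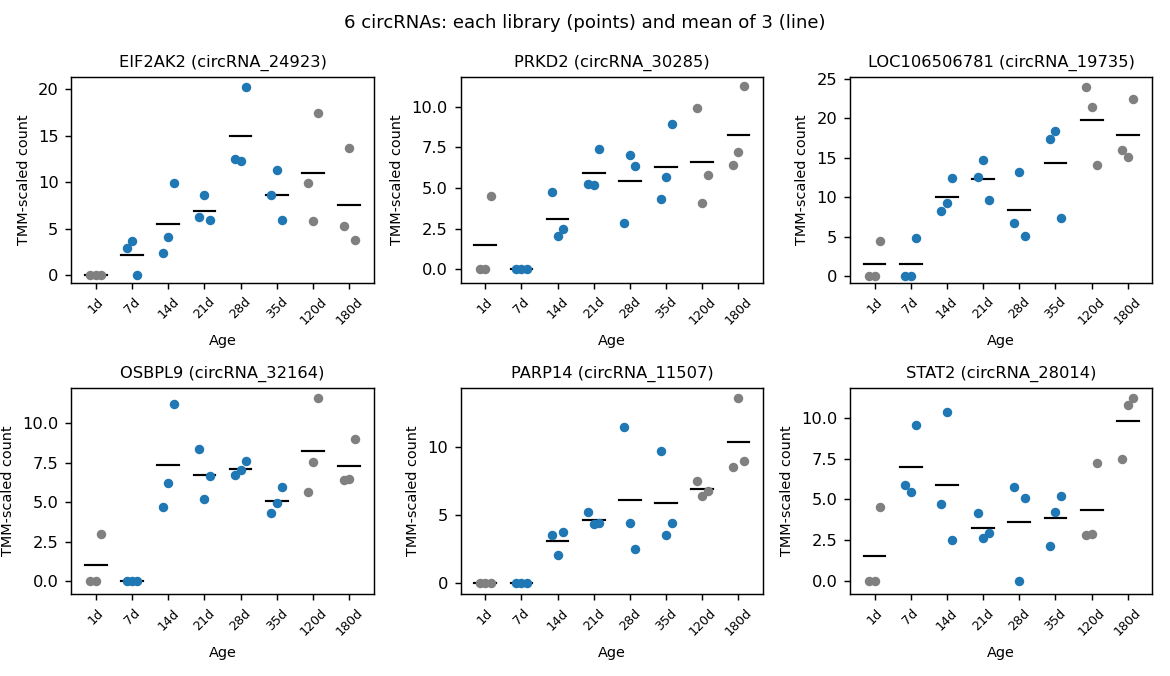
TMM-scaled counts (y axis) of 6 circRNAs in each library by age (x axis), with grey points for libraries used by the choice, blue points for the others and black lines for the mean of 3 pigs. The circRNAs of PRKD2, OSBPL9 and PARP14 are at 0 in all 7d libraries and above 0 in all later ones, and that of STAT2 has its highest mean of 7d to 35d at 7d.

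The host genes were next arranged by what their proteins do, a grouping of 77 of the 139 made after the set was known. It orders the description and carries no test. Over all 139 the median log2 fold change at 35d was 0.89 and 79.1% were above 0, beside 0.22 and 59.2% for the table. Of the table, 2.0% was called higher at 35d and 2.37% in the slope. In the group of interferon-induced genes and sensors of viral RNA were 7 circRNAs, from EIF2AK2 (2), DDX58, STAT2, PARP14, EPSTI1 and HERC6. Their median log2 fold change at 35d was 1.26, 6 of the 7 were above 0, and 1 was called in the slope and 0 at 35d. PARP14 encodes an ADP-ribosyltransferase induced by interferon, and its circRNA_11507 (chr13:137852621-137859040, minus strand, exons 2 to 4) was the only one of the 139 at 0 in all 3 libraries of both 1d and 7d. From 14d on all pigs had reads, 3, 2 and 3 in those of 14d, 5, 5 and 6 in those of 21d, 12, 5 and 2 in those of 28d and 9, 5 and 6 in those of 35d. The last were 1.57 times what the 7d zeros allow (edgeR adjusted p = 0.0609), and the late libraries held 8 to 19.

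EPSTI1, an interferon-induced gene of macrophages and epithelium, gave circRNA_06645 with 5, 0 and 0 reads at 7d and 7, 16 and 8 at 35d, a log2 fold change of 1.61 ± 0.80 (SE, edgeR adjusted p = 0.281). The circle from DDX58, which encodes the viral RNA sensor RIG-I, had 0, 2 and 2 reads at 7d and 5, 7 and 5 at 35d. STAT2, the transcription factor of the type I interferon response, ran the other way, with 4, 3 and 6 reads at 7d and 2, 6 and 7 at 35d, a log2 fold change of −0.79 ± 0.86 (SE, edgeR adjusted p = 0.724). Its groups overlapped, and its slope was among the 3 lowest of the 139.

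The 7 circles varied between pigs of 1 age. As a share of the table total they summed to 0.210%, 0.107% and 0.282% at 28d and to 0.149%, 0.337% and 0.200% at 180d. In pig 2 of 180d, EPSTI1 had 58 reads beside 13 and 24 in the other pigs, DDX58 35 beside 7 and 20, and HERC6 32 beside 8 and 9. EIF2AK2 circRNA_24923 had 19 there beside 5 and 5, and PARP14 19 beside 8 and 12. STAT2 went another way with 7, 15 and 15 reads in the 3 pigs, as did EIF2AK2 circRNA_24935 with 7, 17 and 25. The table totals of these libraries, which the choice used, were 37023, 57890 and 55129. At 120d the share was 0.117%, 0.105% and 0.141%. This unevenness was noticed after the values were seen.

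Receptors and signalling proteins of immune cells were the hosts of 15 circRNAs, with a median log2 fold change of 1.25 at 35d, 14 of the 15 above 0 and 1 called, that of PRKD2. ITGA4, the integrin alpha 4 chain with which lymphocytes bind vessel walls, gave circRNA_16197 with 2, 0 and 2 reads at 7d and 9, 15 and 16 at 35d. The 35d libraries all lay above those of 7d, with a log2 fold change of 2.27 ± 0.78 (SE, edgeR adjusted p = 0.0840). CR1 encodes a complement receptor, and circRNA_37492 within it had 2, 3 and 0 reads at 7d and 8, 12 and 15 at 35d (log2 fold change 1.76 ± 0.82 SE, edgeR adjusted p = 0.244). It ends at the same base as circRNA_37493, which the rule left out. The circles of IKBKB, PRKCB and MAP3K3, kinases upstream of NF-kappa B, had log2 fold changes of 1.21 ± 0.90, 1.40 ± 0.90 and 1.62 ± 1.00 (SE), none of them called.

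PTPN4, a tyrosine phosphatase studied in T cell receptor signalling, gave a pair that begins at the same exon. circRNA_15395 (exons 11 to 15, 591 nt) had 4, 0 and 2 reads at 7d and 10, 25 and 22 at 35d, a log2 fold change of 2.20 ± 0.74 (SE, edgeR adjusted p = 0.0799). circRNA_15391 (exons 11 to 18, 892 nt) had 8, 0 and 0 reads at 7d and 2, 8 and 7 at 35d, a log2 fold change of 0.10 ± 0.95 (SE, edgeR adjusted p = 0.971). The first did not overlap between the ages and the second did, but the difference between the 2 circles was not tested.

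Enzymes and factors of RNA tailing and decay were the hosts of 7 circRNAs, all above 0 at 35d with a median log2 fold change of 1.24 and none called. Among them were both terminal uridylyltransferases ZCCHC6 and ZCCHC11, which add U tails that mark RNAs for decay. ZCCHC6 circRNA_05005 was at 0 in all 7d libraries and had 3, 9 and 10 reads at 35d. These were 1.73 times the limit of the 7d zeros (edgeR adjusted p = 0.0786). ZCCHC11 circRNA_32114 had 3, 0 and 0 reads at 7d and 4, 8 and 8 at 35d. For XRN1, the exonuclease that degrades decapped RNA, the counts were 0, 0 and 6 at 7d and 6, 9 and 14 at 35d. For PARN, a poly(A)-shortening enzyme, they were 7, 5 and 0 and then 10, 19 and 16. In this group 5 of the 7 were at 0 in at least 2 libraries of 7d, beside 41 of the whole 139.

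The 11 circRNAs from ligases of the ubiquitin system and their helpers had a median log2 fold change of 0.63 at 35d, 8 of the 11 were above 0 and none was called. UBE2D1, a ubiquitin-conjugating enzyme, gave circRNA_14189 with 0, 2 and 5 reads at 7d and 11, 18 and 16 at 35d (log2 fold change 1.65 ± 0.67 SE, edgeR adjusted p = 0.161). The lowest slopes of the 139 also belonged here. DCUN1D4, a factor that assists cullin neddylation, gave circRNA_35015 with 6, 4 and 3 reads at 7d and 2, 3 and 3 at 35d, and a log2 fold change of −1.63 ± 0.89 (SE, edgeR adjusted p = 0.359). AREL1, a ligase that limits apoptosis, gave circRNA_34164 with 7, 6 and 10 reads at 7d and 11, 4 and 9 at 35d, and a log2 fold change of −0.85 ± 0.62 (SE, edgeR adjusted p = 0.533). In the late libraries they had 5 to 23 and 5 to 15 reads. The pair from RFWD2, a ligase also called COP1, overlapped in sequence over exons 3 to 5 and had 2, 0 and 2 and 3, 0 and 3 reads at 7d, and 8, 7 and 10 and 8, 8 and 12 at 35d.

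Chromatin and transcription factors were the hosts of 10 circRNAs with a median log2 fold change of 0.46 at 35d, and 7 were above 0. Subunits of the SWI/SNF remodelling complex were in the group, ARID1B, SMARCC1 and SMARCB1, with log2 fold changes of 0.72 ± 1.26, −0.45 ± 0.52 and 0.46 ± 0.82 (SE). Membrane traffic and autophagy genes hosted 16 circRNAs with a median of 0.48, 12 above 0 and 1 called, that of OSBPL9. FIG4 circRNA_01010 had 2, 0 and 0 reads at 7d and 5, 13 and 11 at 35d, a log2 fold change of 2.72 ± 1.00 (SE, edgeR adjusted p = 0.110). Cytoskeleton and motor genes hosted 11 circRNAs with a median of 1.01, 9 above 0 and none called. Of the 2 circles from FRMD4B, which encodes a scaffold protein of cell junctions, circRNA_09978 had 6, 0 and 0 reads at 7d and 12, 27 and 13 at 35d (slope 0.82 ± 0.28 SE, edgeR adjusted p = 0.0895). For circRNA_09986 the counts were 3, 2 and 3 at 7d and 6, 13 and 6 at 35d (slope 0.39 ± 0.31 SE, edgeR adjusted p = 0.562).

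Outside these groups were 62 circRNAs. HMCN1, an extracellular matrix gene, gave circRNA_38491 with 0 reads in all 7d libraries. The pigs of 28d had 14, 7 and 3 reads and those of 35d had 7, 3 and 6. At 28d the reads were 2.34 times the limit of the 7d zeros (edgeR adjusted p = 0.0601). circRNA_38491 was also the scarcest of the 139 late, with 5 to 11 reads. The circles of PALMD and CHIC1 complete the 7 that were at 0 throughout 7d, with 4, 8 and 5 and 6, 4 and 8 reads at 35d. B4GALT6, a galactosyltransferase of glycolipid synthesis, gave a pair at 0 in all 1d libraries. circRNA_31644 had 4, 2 and 0 reads in the pigs of 7d, 23, 17 and 16 in those of 14d, its highest, and 8, 16 and 11 in those of 35d, and circRNA_31645 had 2, 6 and 0, then 12, 3 and 0, then 5, 3 and 8. Beside circRNA_19735 the most abundant circles late were those of FNBP1, EPSTI1, RANBP9, TMEM39A and FAM49B. At 35d against 7d they had log2 fold changes of 1.12 ± 0.63, 1.61 ± 0.80, 0.39 ± 0.65, 1.04 ± 0.69 and 2.48 ± 0.89 (SE), none of them called.

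Other circRNAs of the same host genes were looked at as well, since they were not chosen for late reads or for zeros at 1d. In 71 of the 127 hosts the table held 169 of them, while the other 56 hosts had none. At 35d against 7d, 126 of the 169 were above 0, beside 59.2% of the table. Their median log2 fold change was 0.56, beside 0.22 for the table. Of the 169, 5 were called higher and 0 lower, beside 2.0% and 1.53% of the table. Listed zeros in at least 2 libraries of 1d were found for 22 of them, a count without a share of the table beside it.

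No host gene of the 139 was on any of 12 lists, which held markers of spleen cell types, of pancreas and fat cells, and of the cell cycle. Circles of such markers moved over the same stages. The 7 of B and plasma cell genes (AFF3, BANK1, CD22, RALGPS2) made up 0.0313% to 0.154% of the table total in the pigs of 7d and 0.273% to 0.367% at 35d, and 5 of the 7 were called higher. The called circles came from CD22, BANK1 and RALGPS2, with more than 1 from RALGPS2. The 3 of T and NK cell genes (CD96, LEF1, TOX) went from 0.0141% to 0.0554% at 7d to 0.0899% to 0.148% at 35d, with 1 called higher. The 43 of cell cycle genes went from 2.18% to 2.47% at 7d to 0.768% to 1.18% at 35d, with 9 called lower, more than 1 from HMMR. The 11 of erythroid genes went from 0.459% to 0.550% at 7d to 0.264% to 0.337% at 35d, with 2 called lower, all from TFRC. Of the remaining lists, germinal centre genes had 5 circRNAs, all of EZH2, with 1 called lower, macrophage genes 2 and dendritic and stromal genes 1 each with none called, and 4 lists had none. These calls are at 35d against 7d, where 2.0% of the table was called higher and 1.53% lower. Defining markers such as CD3E and CD163 had no circRNA in the table, so cell types could not be checked by them. The part of cell composition in the levels of the 139 was not tested.

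Against 1d, the median log2 fold change of the 139 was 2.18 at 120d and 2.37 at 180d, values that the choice fixed and from which nothing is read. Of the 24 at 0 in all 1d libraries, the reads at 180d were 1.36 to 7.15 times what those zeros allow. At 120d the ratios ran from 0.933 to 4.52 and were above 1 for 23 of the 24, the exception being the circRNA of MDM2. The choice required both the zeros and the late reads, so nothing is read from these ratios either. By mean, 88 of the 139 were higher at 180d than at 120d, which is not read as a change. Table totals were 37023 to 57890 reads at 180d and 71092 to 87867 at 120d. The minimum of 5 reads thus asked for a larger share at 180d.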

How the data were processed

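The authors sequenced ribosomal RNA-depleted total RNA of 24 spleens and deposited raw counts of back-splice reads for 3000 circRNAs. The study's methods name BWA and CIRI2 on Sscrofa11.1 and the labels list FastQC, cutadapt and TopHat2. The labels and the methods name different RNA and library kits, with RNase R digestion in the methods alone, and which applied is not settled. How the 3000 were selected is not given in the sources used here.

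Junctions were matched to RefSeq exons of the same build with pysam 0.24.0. The 15 libraries of 7d to 35d were fitted in edgeR 4.0.16 (R 4.3.3) with TMM, robust quasi-likelihood dispersion and no count filter, a coefficient per age or log2 age as a slope, and Benjamini-Hochberg adjustment over 3000 circRNAs. Calls needed adjusted p under 0.05 and, between ages, a log2 fold change of at least 1. Each SE printed is the size of the change or slope divided by the square root of its test's F. It was not estimated separately. The scripts were tested on simulated data. The biological coefficient of variation was 0.312. Pigs are separate animals.

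Named circRNAs were the 8 with the smallest slope p, those called, the 6 highest late, those at 0 throughout 1d and 7d, hosts with 2 members, 3 at each limit and the 3 lowest slopes. Others that stand as examples of groups were chosen after their values were seen. The set, its host groups and the gene lists were chosen with earlier results of these data known. Alternatives were other scalings, DESeq2 1.42.0, a count filter, all 24 libraries, a replicate block, a library quality limit, GC, leaving out each library and, added after seeing the data, listed zeros set to 1.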

Additional observations from a re-analysis of the deposited data

How the results depend on the processing

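The number of the 139 called higher against 7d moved most with the choice of depth. With the study's clean reads in place of table totals it was 2, 26, 20 and 50 in the 4 successive ages from 14d to 35d and 55 in the slope, and the table moved too, to 27.5% called higher at 35d with a median log2 fold change of 1.23 for all circRNAs and 1.87 for the 139. At 35d the table was split into 60 higher and 46 lower by TMM, 35 and 69 by unscaled totals, and 826 and 11 by clean reads. In the other settings the number was 1 at 14d with a count filter (which left 40 of the 139 and 1514 of the table to test), GC as a covariate or listed zeros set to 1. At 28d it was 0 with unscaled totals, DESeq2, the count filter or only libraries of at least 0.96 valid bases, and 2 with all 24 libraries. At 35d it was 1 with the count filter or zeros set to 1 and 0 with the valid-base limit. In the slope it was 0 with DESeq2 size factors, unscaled totals, the valid-base limit or zeros set to 1, and 2 with DESeq2. The valid-base limit leaves 1 library at 35d, which is assumed to vary like the others. Same-numbered pigs of different ages did not deviate together (mean correlation −0.00519 over 30 pairs, 1 above 0.1), so the numbers do not pair them. With the replicate number as a block the count was 0 at 28d, 1 at 35d and 0 in the slope.

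Leaving out 1 library at a time gave ranges of 0 to 1, 0 to 0, 0 to 1 and 0 to 4 for the 4 ages in order, and of 0 to 2 for the slope. The 35d count was 0 without 35d pig 2, 1 without 35d pig 3 or 7d pig 2, and 4 without 28d pig 3. The slope count was 0 without 14d pig 2, 21d pig 2 or 3, 28d pig 1 or 2, or 35d pig 2. The share at 35d over 7d was 1.53 to 1.70, and 3.61 per clean read. The set itself would hold 281 circRNAs with a late minimum of 3 reads, 44 with 8 reads, and 24 with 0 in all 3 libraries of 1d. The number expected from depth was 15.3 with TMM totals, 59.4 with shares from 14d to 35d and 0.00404 with clean reads, and 7 of the 139 were at 0 in all 7d libraries. Among the values of named circRNAs, none changed sign with a call under any setting run. Counts of a few reads per library limit what these tests can call.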

Other observations

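The 139 circRNAs lay on 19 chromosomes. Chromosome 1 held 16 of them, chromosome 6 held 14 and chromosome 13 held 12, where the whole table had 324, 235 and 280 circRNAs. Chromosome 12 held 1, the circle of the kinase gene MAP3K3, of 136 in the table, and chromosome X held 1, that of CHIC1, of 58. An end was shared with another circRNA of the table by 46 of the 139 (33.1%), compared with 45.2% of the table. No test was made of these counts.

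Of the 7 circRNAs without an exon chain, circRNA_19735 is described above, and examples of the others follow. circRNA_38649 lies in no annotated gene (chr9:135001722-135010392, plus strand) and had 4, 7 and 2 reads at 7d and 6, 10 and 6 at 35d. Within MBD2, a reader of methylated DNA, circRNA_01375 had 4, 0 and 2 reads at 7d and 6, 8 and 12 at 35d. Within DCP2, the decapping enzyme, circRNA_22112 had 3, 4 and 0 reads at 7d and 6, 5 and 12 at 35d.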
